A study of Mus musculus with 8 samples.

Results

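The imprinted growth genes described here are H19, Igf2, Meg3, Dlk1, Peg3, Cdkn1c, Grb10, Plagl1, Igf2r and Ndn, 10 of the 55933 genes in the expression table. They were taken by gene name, and each name matched a gene of the table. Of the 10 genes, 7 were expressed in mammary epithelium of pregnant mice at a level that could be tested, Igf2 and Meg3 were represented by a few reads per library, and Dlk1 had no read in any library. None of the 7 differed between control and cKO mice at an adjusted p under 0.05. Igf2r was higher in every cKO library than in every control library, by a narrow margin and in the FPKM as deposited only, since the groups overlapped when every library was scaled to the same FPKM sum, and Grb10 was the only one with an unadjusted p under 0.05.

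Mammary epithelial cells of 8 mice, 4 control and 4 cKO, had been taken at pregnancy day 14.5 and sequenced as 1 RNA library each, to ask what loss of the BMP receptor gene Bmpr1a in myoepithelial cells changes. All mice were C57BL/6 females. The cKO mice carried K14-rtTA, teto-Cre and 2 floxed copies of Bmpr1a and drank doxycycline, so that Cre is made only where the K14 promoter is active, and the controls were littermates that the labels call WT, whose alleles and treatment are not given in the sources used here. The cells came from enzyme-digested glands and were not sorted into layers, so luminal cells, which the deletion does not target, were in every library.

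Imprinted genes are transcribed mainly from a single parental copy, and methylation of CpG dinucleotides at control regions marks which copy it is. Many of them control growth before birth, and several are kept active in adult stem and progenitor cells. Igf2, Dlk1, Peg3, Plagl1 and Ndn are made from the paternal copy, and H19, Meg3, Cdkn1c and Igf2r from the maternal copy, while Grb10 is maternal in most tissues and paternal in neurons. The values below are total RNA of a gene and cannot separate the parental copies.

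Between 16123108 and 19896988 reads lay on genes per library. Bmpr1a itself was not lower in the libraries labelled cKO, with 8.74 to 11.7 FPKM in control and 10.2 to 12.0 FPKM in cKO, so this gene does not check the group labels, which were used as given. FPKM counts fragments for each kilobase of a gene after scaling for library size. The length is fixed for each gene (2039 bases for Cdkn1c, 18089 for Meg3), and the RNA made may be shorter. Levels of different genes can thus be compared only roughly. Markers of myoepithelial cells (8 genes, summed FPKM 1606 to 2186 in control and 1508 to 2078 in cKO) and luminal cells (8 genes, 3640 to 4633 and 3536 to 4728) were abundant in all libraries. These sums hide single markers that moved. At an unadjusted p under 0.05 with limma, 1 of the 8 myoepithelial markers was higher in cKO (Oxtr) and 2 were lower (Krt14 and Trp63). Of the 8 luminal markers, 1 was higher (Elf5) and 0 lower. The share over all genes tested was 8.85% higher and 7.53% lower. The sum of 4 alveolar milk protein genes was 2044 to 2734 in control and 4003 to 6571 in cKO, without overlap. Lymphocyte markers (6 genes) summed to 3.25 to 25.3 in control and 1.82 to 3.48 in cKO, and fibroblast markers (8 genes) to 475 to 999 and 319 to 770. In such bulk RNA, fewer cells of a type and less RNA per cell cannot be told apart. Libraries of replicates 1 and 2 deviated from their group means together, as did those of replicates 3 and 4, so differences of the main genes are also given within each of these sets. Values of single libraries are listed in the order of their replicate numbers.

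Ordered by mean FPKM over the 8 libraries, the genes were H19 at 15.7, Igf2r at 12.8, Plagl1 at 11.8, Cdkn1c at 6.27, Grb10 at 5.03, Peg3 at 4.53, Ndn at 1.33, Igf2 at 0.0711, Meg3 at 0.0322 and Dlk1 at 0. The ranges over libraries of neighbours in this order overlapped, except between Peg3 and Ndn and between Ndn and Igf2, and Dlk1 lay below all others. H19 exceeded 78.5% of the genes tested in mean level and Ndn 20.6%. The genes thus fell into 2 ranges, 7 that were expressed at low to moderate levels and 3 that were nearly silent.

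**Figure D1:**
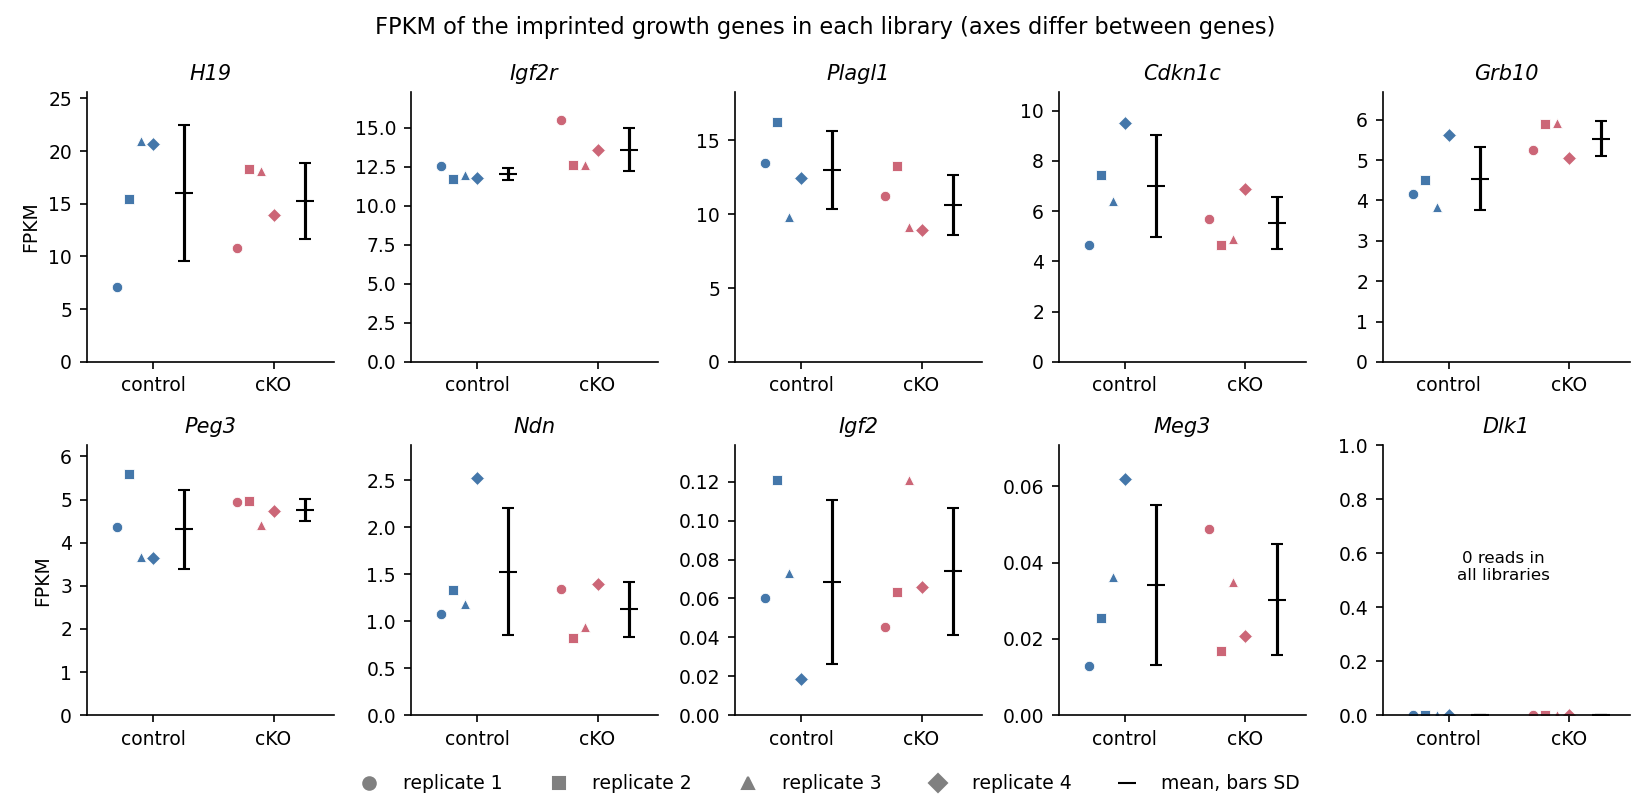
FPKM (vertical axes from 0, different for each gene) of the 10 imprinted growth genes in the control (blue) and cKO (red) libraries; each symbol is a library, its shape the replicate number, and the black bars are mean and SD of 4. In these FPKM as deposited the groups overlap in every panel but that of Igf2r, where the 4 cKO libraries begin at 12.6 FPKM, just above the highest control.

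The limma test, on log2(FPKM + 1), covered the 15143 genes with a mean of at least 0.5 FPKM, which left out Igf2, Meg3 and Dlk1. At an unadjusted p under 0.05, 1 of the 7 genes tested was higher in cKO and 0 were lower, where the share over all genes tested was 8.85% higher and 7.53% lower. With every library scaled to the same FPKM sum, 0 of the 7 were called, beside a share of 5.21% higher and 10.9% lower. At an adjusted p under 0.05 the count was 0 of 7, beside 0.892% of all genes in either direction. All cKO libraries lay above all control libraries for 1 of the 7 (background 6.10%) and below them for 0 (background 4.60%). The median log2 difference of the 7 was 0.01, and that of all genes tested 0.00. With 7 genes, these counts give no share that stands apart from that of the whole table.

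**Figure D2:**
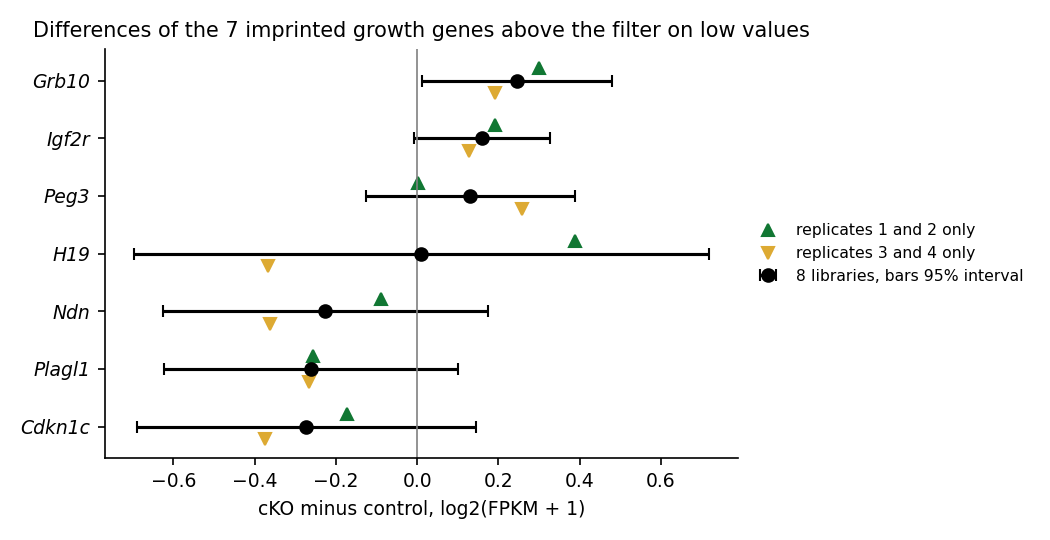
Difference between cKO and control on the log2(FPKM + 1) scale (horizontal axis) for the 7 genes tested; black points are the estimates over all 8 libraries with 95% intervals from limma, and triangles are the same difference within replicates 1 and 2 or within replicates 3 and 4. Only the interval of Grb10 lies above 0, and the triangles of H19 lie on opposite sides of 0.

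Igf2 (chromosome 7 of GRCm38, 142650766 to 142666816, minus strand) encodes a growth factor of the fetus and placenta that signals through the IGF1 and insulin receptors. The reads on Igf2 numbered 6, 12, 7 and 2 in control and 5, 6, 11 and 7 in cKO. This gave 0.0186 to 0.121 FPKM in control and 0.0453 to 0.121 FPKM in cKO, with means of 0.0683 ± 0.0422 and 0.0739 ± 0.0327 (SD, n = 4). At this depth a difference was not detectable (exact permutation test, two-sided, p = 0.886). The antisense gene Igf2os, which overlaps an exon of Igf2, had at most 2 reads in a library.

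Igf2r (chromosome 17, 12682406 to 12769664, minus strand) encodes the receptor that carries IGF2 to lysosomes and so removes it, and it also sorts lysosomal enzymes. Igf2r was at 12.6, 11.7, 12.0 and 11.8 FPKM in control and at 15.5, 12.6, 12.6 and 13.6 FPKM in cKO. The groups did not overlap, but the highest control (12.58) lay just under the lowest cKO (12.60). The means were 12.0 ± 0.383 and 13.6 ± 1.37 (SD, n = 4), a ratio of 1.13 (two-sided exact permutation p = 0.0286, which is the smallest value possible with 4 against 4). The log2 difference with limma was 0.16 (SE 0.07, 95% interval -0.01 to 0.33, unadjusted p = 0.0607, adjusted p = 0.329), 0.19 within replicates 1 and 2 and 0.13 within replicates 3 and 4. In limma fits that left out cKO replicate 2 or cKO replicate 3, the unadjusted p came to 0.0469 and 0.0406. Without cKO replicate 1, the highest library, the limma difference was 0.098 (unadjusted p = 0.155). With every library scaled to the same FPKM sum it was 0.10 (unadjusted p = 0.321), and the groups then overlapped, with 11.5 to 13.4 in control and 12.1 to 16.0 in cKO. With 1862 to 2791 reads per library, Igf2r was the gene of the 10 with the most reads.

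Airn, the long antisense RNA that silences Igf2r on the paternal copy in most tissues, starts inside Igf2r and spans chromosome 17 from 12741311 to 12860136. Airn was at 1.57, 1.38, 1.13 and 1.24 FPKM in control and at 1.93, 1.99, 1.72 and 1.68 FPKM in cKO, without overlap between the groups. This was a log2 difference of 0.28 (SE 0.09, unadjusted p = 0.00952, adjusted p = 0.157 with limma), 0.26 in the set of replicates 1 and 2 and 0.30 in that of replicates 3 and 4. With scaling to the same FPKM sum the limma difference of Airn was 0.24 (unadjusted p = 0.0538). No annotated exon of Airn overlaps one of Igf2r, but without strand the reads of Airn and of unspliced Igf2r RNA cannot be told apart in the stretch the genes share.

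Grb10 (chromosome 11, 11930508 to 12038683, minus strand) encodes an adaptor protein that binds the insulin and IGF1 receptors and dampens their signal. Grb10 was at 4.16, 4.50, 3.85 and 5.63 FPKM in control and at 5.26, 5.88, 5.92 and 5.06 FPKM in cKO. Control replicate 4 lay within the range of the cKO libraries, and the other 3 controls lay below all of them. The means were 4.54 ± 0.778 and 5.53 ± 0.437 (SD, n = 4), a ratio of 1.22 (exact permutation test, two-sided, p = 0.0857). Its log2 difference was 0.25 (SE 0.10, 95% interval 0.01 to 0.48, unadjusted p = 0.0419, adjusted p = 0.283 with limma), 0.30 within replicates 1 and 2 and 0.19 within replicates 3 and 4. In limma fits the unadjusted call was lost without replicate 1, 2 or 3 of either group (unadjusted p from 0.0534 to 0.112 for the 6 libraries) and when every library was scaled to the same FPKM sum (0.19, unadjusted p = 0.120), and it came to an unadjusted p of 0.0504 with the sets of replicates as a block.

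Promoter sequences are shown for Igf2r and Grb10, which were expressed, and for Dlk1, which was not, to mark their CpG. These stretches need not be the control regions that carry the imprint, and methylation was not measured. Each is the 250 bases before a start site in RefSeq (GRCm38.p6), 5′ to 3′ on the strand of the gene, with every CpG in capitals. RefSeq windows were matched for 8 of the 10 genes, but none for H19 and Cdkn1c. The window of Igf2r is chr17:12769707-12769956 on the minus strand, that of Grb10 is the more upstream of 2, chr11:12037421-12037670 on the minus strand, and that of Dlk1 is chr12:109452573-109452822 on the plus strand.
Igf2r: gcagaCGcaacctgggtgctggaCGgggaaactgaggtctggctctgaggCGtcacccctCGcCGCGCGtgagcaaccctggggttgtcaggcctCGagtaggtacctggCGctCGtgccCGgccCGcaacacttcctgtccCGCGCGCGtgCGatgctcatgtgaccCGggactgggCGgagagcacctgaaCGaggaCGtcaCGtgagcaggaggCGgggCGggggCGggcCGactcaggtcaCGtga
Grb10: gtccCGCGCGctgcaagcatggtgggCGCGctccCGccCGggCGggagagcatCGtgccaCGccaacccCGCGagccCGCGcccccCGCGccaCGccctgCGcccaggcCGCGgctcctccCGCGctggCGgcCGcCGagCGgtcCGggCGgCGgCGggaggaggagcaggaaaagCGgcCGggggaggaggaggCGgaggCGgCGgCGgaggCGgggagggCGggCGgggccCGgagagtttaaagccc
Dlk1: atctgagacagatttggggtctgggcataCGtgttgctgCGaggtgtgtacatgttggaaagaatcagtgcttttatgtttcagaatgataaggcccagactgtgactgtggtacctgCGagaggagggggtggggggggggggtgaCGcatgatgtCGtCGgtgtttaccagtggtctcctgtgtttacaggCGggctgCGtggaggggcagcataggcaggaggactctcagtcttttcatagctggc
The Igf2r window holds 27 CpG and the Grb10 window 40, more than 91.4% and 98.7% of the 32851 promoter windows of the mouse, whose median is 6. Dlk1 has 8, Peg3 8, Ndn 5 and Plagl1 19. The 2 windows of Meg3 have 10 and 0, the 4 of Igf2 from 1 to 22, and the other window of Grb10 has 8. The silent genes were not set apart by this count, since the window of Dlk1 holds as many CpG as that of Peg3, which was expressed.

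H19 (chromosome 7, 142575529 to 142578143, minus strand) is a long noncoding RNA from the locus of Igf2, known as an abundant fetal RNA that restrains growth and hosts miR-675. H19 was at 7.08, 15.5, 20.9 and 20.6 FPKM in control and at 10.8, 18.3, 18.1 and 13.9 FPKM in cKO. The cKO libraries all lay inside the range of the controls, and in both groups replicate 1 was the lowest. The means were 16.0 ± 6.47 and 15.3 ± 3.59 (SD, n = 4; exact permutation test, two-sided, p = 0.857). On the log2 scale the difference was 0.01 (SE 0.31, 95% interval -0.70 to 0.72, unadjusted p = 0.974, adjusted p = 0.991 with limma). It was 0.39 for the set of replicates 1 and 2 and -0.37 for that of replicates 3 and 4, and limma gave -0.31 without control replicate 1 (unadjusted p = 0.136), so these libraries give no stable direction for H19. The 302 to 953 reads per library leave counting error small beside this spread.

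The miRNAs inside the noncoding hosts and Igf2 are printed because their seeds (bases 2 to 8, in capitals) are what a host RNA could deliver to targets. RefSeq (GRCm38.p6) gives the following mature forms.
miR-675-5p, in H19: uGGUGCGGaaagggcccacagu
miR-675-3p, in H19: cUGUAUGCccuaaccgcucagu
miR-483-5p, in Igf2: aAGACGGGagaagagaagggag
miR-483-3p, in Igf2: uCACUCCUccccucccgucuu
miR-770-5p, in Meg3: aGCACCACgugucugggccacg
miR-770-3p, in Meg3: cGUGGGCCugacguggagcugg
The 6 seeds differ from each other. The table lists Mir675, Mir483 and Mir770 at 0 in all 8 libraries, and mature miRNAs were not measured by these libraries, so H19 is the only host that was itself well expressed. On the minus strand of chromosome 7, miR-675-5p lies from 142577112 to 142577133 and miR-675-3p from 142577078 to 142577099, both inside H19.

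Dlk1 encodes a membrane protein related to the Notch ligands that holds preadipocytes and other progenitors undifferentiated, and Meg3 is the maternally expressed long noncoding RNA of the same locus on chromosome 12. Dlk1, from 109452823 to 109463336 on the plus strand, had 0 reads in all 8 libraries, which allows at most 0.0275 to 0.0334 FPKM per library if 3 reads are taken as the limit that a count of 0 allows. Meg3, from 109541001 to 109571726 on the plus strand, had 4, 8, 11 and 21 reads in control and 17, 5, 10 and 7 in cKO. Its mean was 0.0341 ± 0.0208 FPKM in control and 0.0303 ± 0.0145 in cKO (SD, n = 4), and a difference was not detectable at this depth (exact permutation test, two-sided, p = 0.771). These limits cover counting error only. Of the other genes of this locus on the list of imprinted genes, Rtl1 had 0 reads, Rian at most 3 and Dio3 at most 6 per library.

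Mirg, a noncoding RNA that hosts many miRNA hairpins at the far end of the same locus, was above the filter (chromosome 12, 109729764 to 109749460). Mirg was at 0.712, 0.903, 0.794 and 1.162 FPKM in control and at 0.561, 0.374, 0.604 and 0.465 FPKM in cKO, and every cKO library lay below every control. Its log2 difference was -0.33 (SE 0.10, unadjusted p = 0.00977, adjusted p = 0.157 with limma), from 45 to 159 reads per library, with -0.30 for replicates 1 and 2 and -0.36 for the other set. Meg3, Rtl1 and Rian, which lie before it in the locus, were at or near 0.

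Plagl1 (chromosome 10, 13060504 to 13131694, plus strand) encodes a zinc-finger transcription factor that slows the cell cycle and controls other imprinted genes. Plagl1 was at 13.5, 16.2, 9.82 and 12.4 FPKM in control and at 11.2, 13.3, 9.12 and 8.95 FPKM in cKO. The value in cKO was below that of the control with the same number in 4 of 4 cases, but the groups overlapped. The means were 12.99 ± 2.65 and 10.6 ± 2.04 (SD, n = 4), a ratio of 0.82 (exact permutation test, two-sided, p = 0.2). With limma the log2 difference was -0.26 (SE 0.16, 95% interval -0.62 to 0.10, unadjusted p = 0.137, adjusted p = 0.465), with -0.26 in the set of replicates 1 and 2 and -0.27 in that of replicates 3 and 4. In limma fits it was -0.36 without cKO replicate 2 (unadjusted p = 0.0479) and -0.38 without control replicate 3 (unadjusted p = 0.0320), but -0.15 without control replicate 2 (unadjusted p = 0.344) and -0.19 without cKO replicate 4 (unadjusted p = 0.298). With the 2 sets of replicates as a block in limma it was -0.26 (SE 0.09, unadjusted p = 0.0237, adjusted p = 0.164).

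Peg3 (chromosome 7, 6703892 to 6730431, minus strand) encodes a large zinc-finger protein known from maternal behaviour and from adult stem cells of several tissues. Peg3 was at 4.35, 5.58, 3.66 and 3.64 FPKM in control and at 4.94, 4.96, 4.40 and 4.73 FPKM in cKO. The cKO values lay inside the control range and much closer together. The means were 4.31 ± 0.910 and 4.76 ± 0.257 (SD, n = 4; exact permutation test, two-sided, p = 0.371), and the log2 difference was 0.13 (SE 0.11, 95% interval -0.13 to 0.39, unadjusted p = 0.280, adjusted p = 0.621 with limma). Replicates 1 and 2 gave 0.00 and replicates 3 and 4 gave 0.26. In a limma fit without control replicate 2, the highest library, the difference was 0.24 (unadjusted p = 0.0202), and without control replicate 3 or 4 it was 0.074 (unadjusted p = 0.551) or 0.071 (unadjusted p = 0.565). With scaling to the same FPKM sum it was 0.079 (unadjusted p = 0.600).

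Cdkn1c (chromosome 7, 143458339 to 143461050, minus strand) encodes the cell cycle inhibitor p57, a brake on growth that is lost in overgrowth syndromes. Cdkn1c was at 4.67, 7.45, 6.41 and 9.51 FPKM in control and at 5.69, 4.64, 4.88 and 6.89 FPKM in cKO. Control replicates 2 and 4 lay above all cKO libraries, and control replicate 1 lay among the lowest. The means were 7.01 ± 2.02 and 5.53 ± 1.02 (SD, n = 4), a ratio of 0.788 (exact permutation test, two-sided, p = 0.257). The difference on the log2 scale was -0.27 (SE 0.18, 95% interval -0.69 to 0.14, unadjusted p = 0.173, adjusted p = 0.513 with limma), -0.17 within replicates 1 and 2 and -0.37 within replicates 3 and 4. In limma fits it was -0.43 without control replicate 1 (unadjusted p = 0.0238) and -0.13 without control replicate 4 (unadjusted p = 0.449).

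Ndn (chromosome 7, 62346569 to 62350262, plus strand) encodes necdin, a growth suppressor of neurons and other postmitotic cells. Ndn was at 1.08, 1.33, 1.18 and 2.52 FPKM in control and at 1.35, 0.821, 0.938 and 1.40 FPKM in cKO. Control replicate 4 stood above the other 7 libraries, which overlapped. The means were 1.53 ± 0.672 and 1.13 ± 0.290 (SD, n = 4; exact permutation test, two-sided, p = 0.371), from 50 to 175 reads per library. Its log2 difference was -0.23 (SE 0.18, 95% interval -0.63 to 0.17, unadjusted p = 0.233, adjusted p = 0.579 with limma), -0.09 within replicates 1 and 2 and -0.36 within replicates 3 and 4. In a limma fit without control replicate 4 it was -0.055 (unadjusted p = 0.672), so the size of the difference rests on that library. It was -0.36 with a pseudocount of 0.1 (unadjusted p = 0.228) and -0.43 in limma-voom with the replicate block (unadjusted p = 0.0811).

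Cdkn1c and Ndn were both highest in control replicate 4, and over the 8 libraries their levels had a Pearson r of 0.90, the highest of any pair of the 7 genes tested. That library also had the highest sum of the 8 fibroblast markers, and of the 8 myoepithelial (2186 FPKM) and 3 red cell markers (26.0 FPKM). The fibroblast sum was 481, 828, 475 and 999 FPKM in control and 770, 458, 319 and 552 FPKM in cKO. The fibroblast markers were thus high in control replicates 2 and 4 and in cKO replicate 1. All 8 of them had a lower mean log2 level in cKO (median difference -0.42), 1 with an unadjusted p under 0.05 (background 7.53%), and the groups overlapped for each (exact permutation test of the sum, two-sided, p = 0.314). The part of fibroblast RNA in the levels of Cdkn1c and Ndn was not tested.

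**Figure D3:**
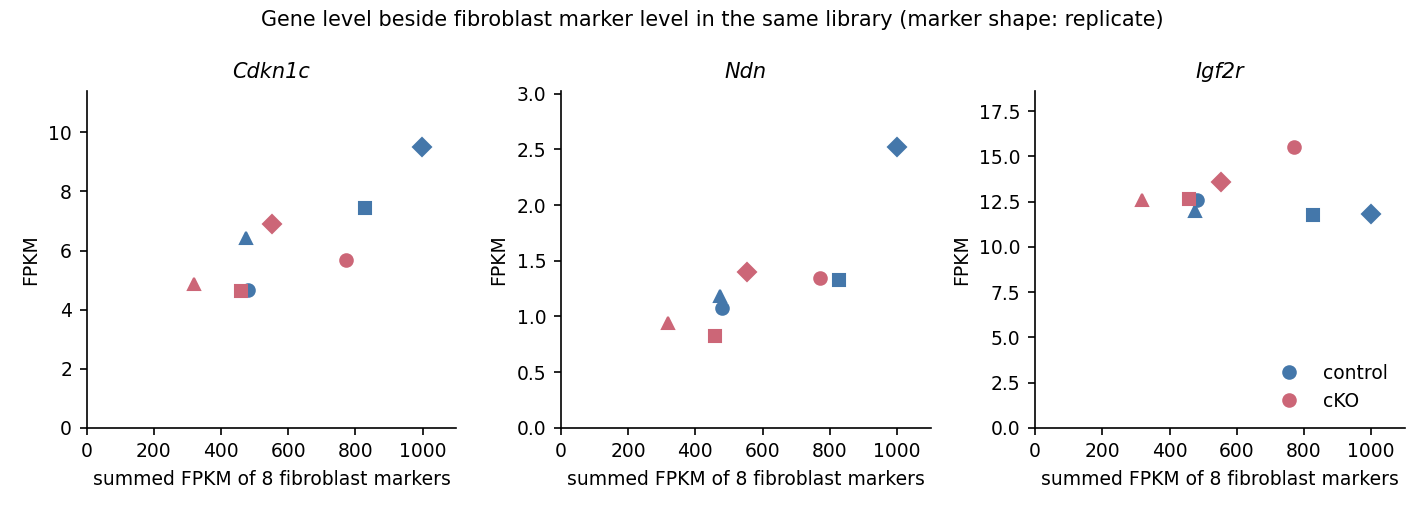
FPKM of Cdkn1c, Ndn and Igf2r (vertical axes) against the summed FPKM of 8 fibroblast markers (horizontal axis) in the same library; colour gives the group and shape the replicate number. Cdkn1c and Ndn are highest where the marker sum is highest, at 999 in control replicate 4, while Igf2r in that library (11.8) is among its lowest values.

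The genes differed in how much single mice varied. The coefficient of variation among the controls was 40.3% for H19 and 44.0% for Ndn, higher than for 91.4% and 92.7% of the genes tested, whose median was 12.2%. Cdkn1c followed at 28.9%, Peg3 at 21.1%, Plagl1 at 20.4% and Grb10 at 17.2%. Igf2r was the exception among the controls, at 3.18%, where 3.63% of the genes tested were steadier. In the cKO libraries Igf2r was at 10.1%, with 35.6% of the genes steadier. There Peg3 (5.41%) and Grb10 (7.91%) were also steadier than the median gene (13.03%), and Ndn (25.7%) and H19 (23.5%) again varied most. The highest library exceeded the lowest 2.95 times for H19 and 3.08 times for Ndn. Single libraries carried several of these values, since without control replicate 1 the coefficient among the controls was 16.1% for H19, without control replicate 4 it was 10.5% for Ndn, under the median of 12.1% for all genes without that library, and without cKO replicate 1 that of Igf2r in cKO was 4.26%. Among the controls, Peg3 was at 10.4% without control replicate 2 (median 11.5%) and Grb10 at 7.85% without control replicate 4 (median 12.1%). Cdkn1c and Plagl1 stayed above the median whichever control was left out.

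Ratios between partner genes were compared for 2 pairs, on the scale of log2 of FPKM + 1. H19 exceeded Igf2 by 3.89 ± 0.684 in control and 3.90 ± 0.307 in cKO (SD, n = 4; exact permutation test, two-sided, p = 1). The ligand Igf2 lay below its clearance receptor Igf2r by 3.61 ± 0.0754 in control and 3.76 ± 0.165 in cKO (SD, n = 4; exact permutation test, two-sided, p = 0.114). Neither of these 2 differences between the groups passed the test, and with Igf2 near 0 both mainly follow the other gene. The size of both ratios is set by the added 1 and is not the fold difference in FPKM. Since Dlk1 had no read, the level of Meg3 over Dlk1 is that of Meg3 alone and gives no comparison of its own.

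The genes whose levels over the 8 libraries were most like those of each imprinted gene were sought among 12916 genes with a mean of at least 1 FPKM, by Pearson r of log2(FPKM + 1). H19 was most like Socs2, an inhibitor of growth hormone and prolactin signalling, at r = 0.96, followed by Gm13453 (0.93) and Tmem250-ps (0.92). Igf2r was most like Tnik at r = 0.998, followed by Srgap3 (0.97) and Bnip3l (0.96). Cdkn1c was most like Sat2 (0.97), Gstm2 (0.95) and Igfbp4, an IGF-binding protein (0.95), and Ndn was most like Apex1 (0.97), Has1, a hyaluronan synthase (0.95), and Mcpt4, a mast cell protease (0.95). Peg3 was most like Epm2aip1 (0.97), Vps13b (0.97) and Gm25945 (0.96). For Plagl1 the nearest were Gm24644 (0.96), Mx1, an interferon-induced gene (0.96), and Gm33782 (0.96), and for Grb10 they were Cetn3 (0.96), Uchl5 (0.96) and Gpn3 (0.94). Gm24644 rested on only 4 to 10 reads per library, Gm25945 on 6 to 21 and Gm13453 on 3 to 37. Sat2 (22 to 36) and Gm33782 (20 to 49) were also low in reads. With 8 libraries and so many genes searched, high values of r are found for every gene, and between 9 and 57 genes had an r over 0.9 with each of the 7. The points share the group difference and the sets of replicates.

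Other imprinted genes were taken as a list of 56, of which 55 were in the table, 4 had no read and 30 were above the filter. Among the 30, 7 had higher (background 8.85%) and 2 lower values (7.53%) in cKO at an unadjusted p under 0.05 and 0 at an adjusted p, with a median log2 difference of 0.03 beside 0.00 for all genes. With scaling to the same FPKM sum the counts were 2 higher (background 5.21%) and 2 lower (10.9%), since Airn, Copg2, Blcap, Phlda2 and Cobl no longer passed, and with 1 library left out they were 3 to 7 higher and 2 or 3 lower. The groups did not overlap for 4 of the 30 in the higher direction (Airn, Copg2, H13 and Blcap; background 6.10%) and for 2 in the lower (Gnas and Mirg; 4.60%). Cd81 was the highest of the list, at 78.5 ± 4.96 FPKM in control and 83.5 ± 5.49 in cKO (SD, n = 4).

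Gnas, which encodes the stimulatory G protein subunit that couples hormone receptors to cyclic AMP, gave the smallest p of the list. Gnas was at 6.15, 5.97, 6.56 and 6.26 FPKM in control and at 4.79, 3.84, 4.87 and 4.81 FPKM in cKO, every cKO library below every control. Its log2 difference was -0.38 (SE 0.08, unadjusted p = 0.000921, adjusted p = 0.0652 with limma), with -0.42 in the set of replicates 1 and 2 and -0.34 in the other set. Copg2, a coat protein of Golgi vesicles, was at 6.02 ± 0.351 FPKM in control and 7.25 ± 0.646 in cKO (SD, n = 4; log2 difference 0.23, adjusted p = 0.180 with limma), and an exon of Mest, with up to 253 reads per library, overlaps it on the other strand. H13, a signal peptide peptidase, was at 18.7 ± 1.72 and 21.5 ± 1.02 FPKM (log2 difference 0.19, adjusted p = 0.250 with limma). Blcap was at 47.8 ± 3.55 and 54.5 ± 1.21 FPKM (log2 difference 0.19, adjusted p = 0.204 with limma). For Copg2, H13 and Blcap the difference was 0.29, 0.25 and 0.26 in replicates 1 and 2 and 0.17, 0.13 and 0.12 in replicates 3 and 4.

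Neighbours of Cdkn1c and Grb10 were among the 3 further genes with an unadjusted p under 0.05 and overlapping groups, which are named here after their values were seen. Slc22a18 and Phlda2, maternally expressed neighbours of Cdkn1c, were at 2.78 ± 0.614 and 0.983 ± 0.188 FPKM in control and at 3.97 ± 0.993 and 1.39 ± 0.264 FPKM in cKO (SD, n = 4). The log2 difference of Slc22a18 was 0.39 (0.36 in replicates 1 and 2 and 0.41 in replicates 3 and 4; unadjusted p = 0.0406, adjusted p = 0.279 with limma, and adjusted p = 0.0402 with the sets as a block), and that of Phlda2 was 0.27, of which replicates 1 and 2 show 0.029 and replicates 3 and 4 show 0.51. Cobl, beside Grb10, was at 3.98 ± 0.639 FPKM in control and 5.02 ± 0.686 in cKO (SD, n = 4), a log2 difference of 0.28, with 0.030 in replicates 1 and 2 and 0.52 in replicates 3 and 4, so the differences of Phlda2 and Cobl came from 1 of the 2 sets. Of the neighbours of Ndn, Magel2 and Snurf had no read, Peg12 had 1 to 13 and Mkrn3 13 to 30 reads per library, and Snrpn, from 102 to 151 reads, was at 3.28 ± 0.404 FPKM in control and 3.82 ± 0.212 in cKO (SD, n = 4; log2 difference 0.18, adjusted p = 0.337 with limma), a difference that was 0.11 without control replicate 1. The insulin gene Ins2, beside Igf2, had no read.

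**Figure D4:**
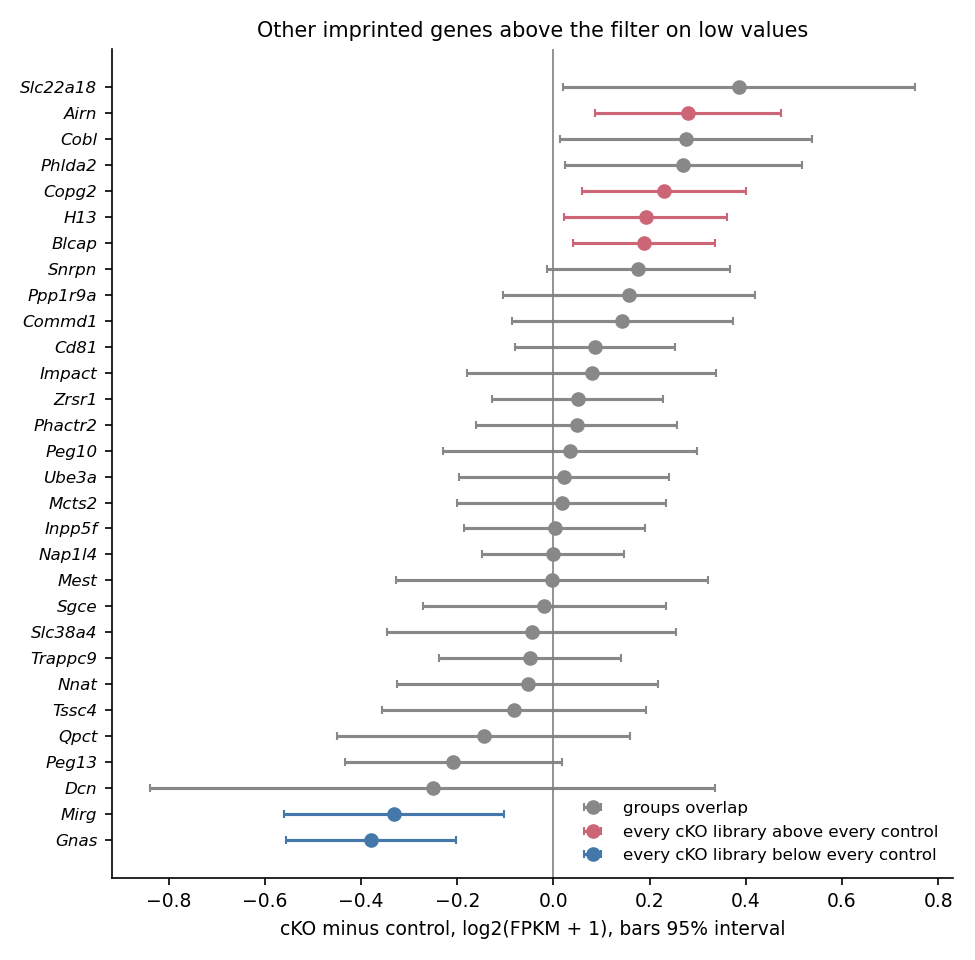
Difference between cKO and control on the log2(FPKM + 1) scale (horizontal axis) with 95% intervals from limma for the 30 other imprinted genes tested; colour marks the genes whose groups do not overlap. Most points lie near 0, with Gnas (-0.38) and Mirg (-0.33) at the lower end.

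The pathway in which Igf2, Igf2r and Grb10 act was described by a list of 20 genes, of which 15 were above the filter. At an unadjusted p under 0.05, 1 was higher in cKO (background 8.85%) and 4 were lower (7.53%), and 0 passed an adjusted p of 0.05. The groups did not overlap for each of these 5 (background 6.10% higher and 4.60% lower). The median log2 difference of the 15 was -0.26, beside 0.00 for all genes tested. All 3 lower genes that encode secreted binding proteins, Igfbp3, Igfbp5 and Igfbp7, were abundant, and the other lower gene, Igf2bp2, encodes a protein that binds IGF2 mRNA. The other 3 binding protein genes tested did not pass and are given after their values were seen. Igfbp2 was at 95.7 ± 29.4 FPKM in control and 103 ± 27.4 in cKO (SD, n = 4; log2 difference 0.12, adjusted p = 0.864 with limma), where the called binding protein genes were lower, and its sign turned without control replicate 1 or cKO replicate 3. Igfbp4 was at 34.3 ± 8.29 and 26.7 ± 5.33 FPKM (log2 difference -0.34, adjusted p = 0.401 with limma), and Igfbp6 was at 54.4 ± 24.9 and 37.4 ± 15.1 FPKM (log2 difference -0.50, adjusted p = 0.521 with limma). Without control replicate 4 the differences of Igfbp4 and Igfbp6 were -0.20 and -0.24.

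Igfbp3, the main carrier of IGFs in blood, was at 139, 114, 158 and 134 FPKM in control and at 76.1, 89.3, 91.0 and 47.5 FPKM in cKO. Its log2 difference was -0.87 (SE 0.20, unadjusted p = 0.00189, adjusted p = 0.0819 with limma), with -0.61 in replicates 1 and 2 and -1.13 in replicates 3 and 4. Igfbp5, which is known to block IGF survival signals in the involuting gland, was at 86.7, 92.1, 97.9 and 98.0 FPKM in control and at 71.9, 56.7, 41.9 and 57.1 FPKM in cKO. Its log2 difference was -0.73 (SE 0.14, unadjusted p = 0.000612, adjusted p = 0.0568 with limma), with -0.48 and -0.99 in these sets. Igfbp7 was at 225 ± 12.4 FPKM in control and 159 ± 24.4 in cKO (SD, n = 4; log2 difference -0.51, -0.40 and -0.61 in the 2 sets, adjusted p = 0.0775 with limma), and an exon of Polr2b, with up to 1045 reads per library, overlaps it on the other strand. Igf2bp2 was at 2.58 ± 0.147 and 2.01 ± 0.371 FPKM (log2 difference -0.26, adjusted p = 0.247 with limma), and without cKO replicate 4 its limma difference was -0.17 and no longer passed (unadjusted p = 0.0505). The only higher gene, Igfals, which stabilises IGF complexes in blood, was at 15.9 ± 1.52 FPKM in control and 20.1 ± 2.66 in cKO (SD, n = 4; log2 difference 0.32, adjusted p = 0.176 with limma). Markers of fibroblasts, endothelial cells and lymphocytes had median log2 differences of -0.42, -0.26 and -0.88. Those of pericytes had -0.11, while the 3 adipocyte markers tested were all higher in cKO, with a median of 0.71. Of these 3, 2 had an unadjusted p under 0.05 with limma (background 8.85%). Among them Cidec, at 0.386 FPKM in control and 1.56 in cKO, had an adjusted p of 0.0377 with limma. The 6 endothelial markers, 3 of them lower at an unadjusted p under 0.05 (background 7.53%), summed to 72.2 to 82.3 FPKM in control and 51.5 to 78.6 FPKM in cKO, and no fibroblast marker was at 0 in any library. Of these endothelial markers Vwf was lower at an adjusted p under 0.05, at 5.33 ± 0.134 FPKM in control and 3.604 ± 0.283 in cKO (SD, n = 4; log2 difference -0.46, adjusted p = 0.0268 with limma), every cKO library below every control. The 5 macrophage markers all had a lower mean log2 level in cKO (median difference -0.28), and summed to 76.6 to 107 FPKM in control and 55.5 to 81.5 FPKM in cKO. Of these 5, 2 had an unadjusted p under 0.05 (Adgre1 and C1qa, background 7.53%). The groups did not overlap for 2 (Adgre1 and Csf1r, background 4.60%). The part of these cell types in the levels of the binding proteins was not tested.

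**Figure D5:**
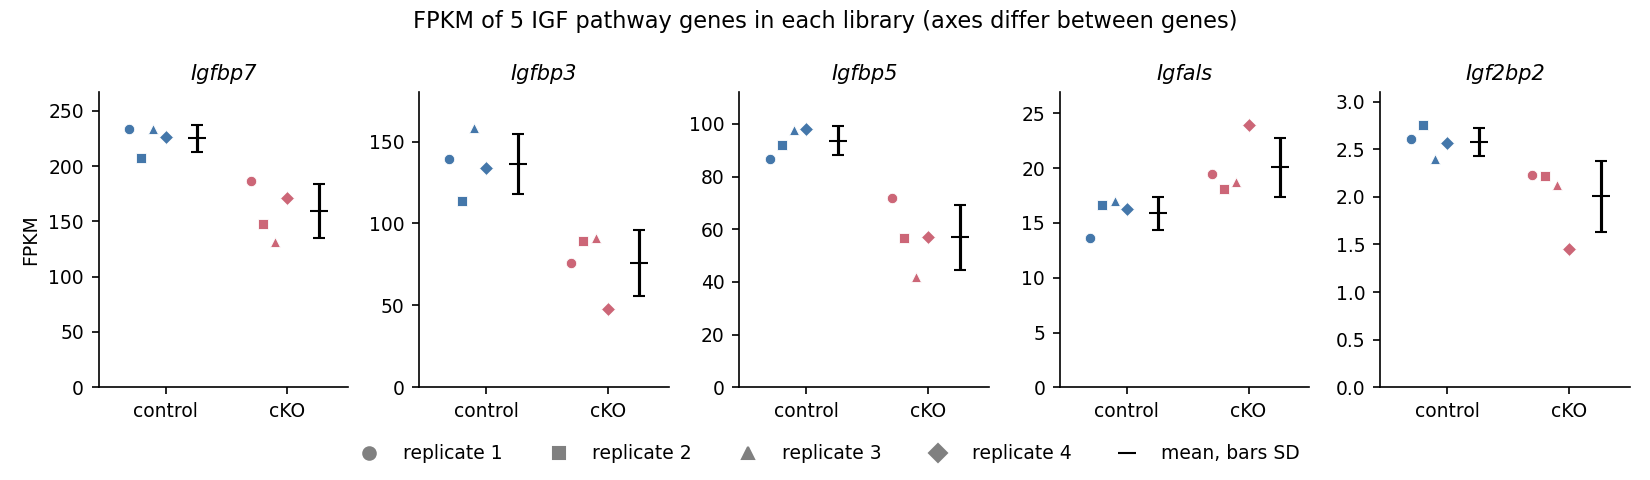
FPKM (vertical axes from 0, different for each gene) of the 5 IGF pathway genes whose groups do not overlap, in the control (blue) and cKO (red) libraries; symbols are libraries, shapes replicate numbers, and black bars mean and SD of 4. The cKO libraries lie below all controls for Igfbp7, Igfbp3, Igfbp5 and Igf2bp2, and above them for Igfals.

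The receptor and the other ligand of the pathway, named here after their values were seen, did not pass. Igf1r, which carries the IGF signal, was at 2.81 ± 0.350 FPKM in control and 2.82 ± 0.175 in cKO (SD, n = 4; log2 difference 0.01, adjusted p = 0.975 with limma). Igf1 was at 1.05 ± 0.208 and 0.716 ± 0.340 FPKM (log2 difference -0.27, adjusted p = 0.384 with limma), with -0.033 in replicates 1 and 2 and -0.51 in replicates 3 and 4. Without cKO replicate 1 the limma difference of Igf1 was -0.40 (unadjusted p = 0.00668).

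Relatives of the imprinted growth genes were present at higher levels than the imprinted gene in several families. Among the cell cycle inhibitors, Cdkn1a (p21) was at 96.5 ± 12.7 FPKM in control and 77.7 ± 8.18 in cKO (SD, n = 4; log2 difference -0.30, unadjusted p = 0.0233, adjusted p = 0.223 with limma), with overlapping groups. Cdkn1b (p27) was at 21.7 ± 1.79 and 22.3 ± 0.954 FPKM (log2 difference 0.04), so Cdkn1c was the lowest of this family of 3. Grb7, an adaptor related to Grb10, was at 50.1 ± 4.54 FPKM in control and 48.1 ± 3.93 in cKO (SD, n = 4), and Grb14 was under the filter at 0.307 and 0.328 FPKM. Plagl2 was at 6.20 ± 0.725 and 5.60 ± 0.280 FPKM, below Plagl1, and Plag1 was at 0.199 and 0.295 FPKM. Dlk2, the relative of the silent Dlk1, was expressed at 2.26 ± 0.371 FPKM in control and 2.37 ± 0.403 in cKO (SD, n = 4). Of the 9 Delta-like and Notch genes tested, 0 were higher (background 8.85%) and 1 lower (7.53%) at an unadjusted p under 0.05 (Dll4, log2 difference -0.29, unadjusted p = 0.0487, adjusted p = 0.302 with limma), and Jag1 was the highest of the list, at 30.5 ± 3.06 and 25.3 ± 4.15 FPKM (log2 difference -0.27, unadjusted p = 0.0589, adjusted p = 0.325 with limma). Without cKO replicate 4 the limma difference of Jag1 was -0.16 (unadjusted p = 0.141), and its unadjusted p was under 0.05 in 6 of 17 alternatives. The unadjusted call of Dll4 was lost in 9 of 17.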

How the data were processed

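Per the file headers and the methods of the study, the authors prepared NEBNext Ultra libraries, used Hisat2 with GRCm38 and deposited FPKM for 55933 genes in 8 libraries. The submitters' processing notes list featureCounts 1.5.0-p3, StringTie 1.3.3b and mm9, but 99.68% of the 55394 gene identifiers found in GENCODE vM21 have its GRCm38 coordinates, which are used here. Whole reads were recovered from FPKM and gene length for 100% of the values (tolerance 0.01 of a read). The deposited values already include size factors. Within groups no pair of libraries agreed within sampling noise (chi-square per degree of freedom of at least 8.18 for every pair). By this measure cKO replicate 3 lay nearer to cKO replicate 2 (13.25) than to cKO replicate 4 (18.99), so the sets are not seen in every pair.

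Group differences on the log2(FPKM + 1) scale were fitted by limma 3.58.1 (R 4.3.3) with empirical Bayes and trend, and Benjamini-Hochberg adjustment covered the 15143 genes whose mean FPKM was 0.5 or more. Fold changes on this scale understate those of low genes. The 10 genes were also compared singly by exact permutation tests, unadjusted, including those under the filter. Reads of genes with overlapping exons on opposite strands cannot be separated, since strand-specific counting is not stated. Python 3.11.15 with pandas 2.3.3 was used for other steps, and the fit was tested on simulated data. The genes described, the gene lists and the alternatives were chosen with earlier results of these data known. Named genes are the 10, the genes of each list with an unadjusted p under 0.05 and no overlap between groups, the highest of each list, and the 3 most like each gene tested. Further genes, relatives and neighbours of these, were named after their values were seen. Alternatives were a pseudocount of 0.1, scaling to the same FPKM sum, no filter or a mean of at least 1, no trend, blocks by replicate number or by replicates 1 and 2 against 3 and 4, limma-voom on recovered reads, and leaving out each library.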

Additional observations from a re-analysis of the deposited data

How the results depend on the processing

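Replicate numbers gave no evident pairing of the mice. Deviations of same-numbered libraries correlated at 0.0797 to 0.137 (mean 0.111). Those of other numbers in the same set correlated at 0.0873 to 0.178 (mean 0.130). With 4 pairs of each and overlapping ranges, these values cannot decide on pairing. With the replicate block in limma, 2 of the 7 genes had an unadjusted p under 0.05 (Plagl1, unadjusted p = 0.00964, and Igf2r) in place of Grb10, and 50 of all genes were called at an adjusted p in place of 135. Limma-voom with the replicate block called 3 and 680. With the set block 442 of all genes were called and, of the 7, Plagl1 in place of Grb10 at an unadjusted p under 0.05, with limma-voom alone 252, without a filter 10, and between 0 and 78 when 1 library was left out, 0 without control replicate 4. Of the 7 genes, 0 were called at an unadjusted p under 0.05 with scaling to the same FPKM sum and 2 without a filter, and between 0 and 2 with 1 library left out. The share of all genes called at this p, higher and lower, was 11.1% and 9.55% with the replicate block. It was 11.6% and 10.8% in limma-voom with that block, and 11.9% and 9.47% with the set block. With this scaling it was 5.21% and 10.9%, and without a filter 5.51% and 4.8%. With 1 library left out it was 7.19% to 8.69% and 6.06% to 7.88%. In no setting did any of the 7 pass an adjusted p of 0.05; the lowest was 0.0595, for Plagl1 in limma-voom with the replicate block, whose adjusted p ranged up to 0.673.

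H19 turned to -0.046 with scaling to the same FPKM sum, -0.044 in limma-voom with the replicate block, and ranged from -0.31 to 0.17 with 1 library left out, below 0 without control replicate 1 (-0.31), cKO replicate 2 (-0.08) and cKO replicate 3 (-0.08). The ratio of H19 over Igf2 was -0.046 with a pseudocount of 0.1 and ranged from -0.32 to 0.17 with 1 library left out, that of Meg3 over Dlk1, which is Meg3 alone, from -0.0152 to 0.0076, and that of Igf2 over Igf2r from -0.20 (without cKO replicate 3, exact permutation p = 0.0286) to -0.077. The causes were not tested. The unadjusted call of Grb10 was lost in 9 of 17 alternatives, and those of Airn, Copg2, Blcap, Cdkn1a, H13 and Igf2bp2 in 1 to 4 of 17. Gnas, Igfbp3, Igfbp5, Igfbp7 and Igfals kept theirs in all 17 and Mirg in the 16 that could be run. The adjusted p in limma ranged over the alternatives from 0.0155 to 0.151 for Gnas, 0.0210 to 0.191 for Igfbp3, 0.0220 to 0.135 for Igfbp5, 0.0178 to 0.177 for Igfbp7, 0.0402 to 0.483 for Slc22a18 (0.0402 with the set block) and 0.0420 to 0.402 for Cdkn1a. The unadjusted call was lost in 4 of 17 for Slc22a18, 8 of 17 for Phlda2 and Cobl, and 9 of 17 for Dll4. Genes with differences near 0 turned in sign: Igf1r to -0.039 and Cdkn1b to -0.021 with scaling to the same FPKM sum, and with 1 library left out Igf1r ranged from -0.042 to 0.051, Cdkn1b from -0.013 to 0.074, Dlk2 from -0.020 to 0.11 and Igfbp2 from -0.065 to 0.32. With a pseudocount of 0.1, which shrinks low genes less, Airn was at 0.44, Mirg at -0.72, Ndn at -0.36, Phlda2 at 0.46 and Igf1 at -0.56. No setting moved the median of all genes by over 0.1.

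Depth limits Igf2, Meg3 and Dlk1, whose reads were at most 21 per library.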
